A study of Homo sapiens with 12 samples.

Results

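The trefoil factor genes TFF3, TFF2 and TFF1 lie side by side on chromosome 21, and the chromatin around them was surveyed in a window of hg38 that runs 50 kb beyond the cluster on either side (chr21:42261667-42416535). All peaks of 12 ATAC-seq libraries with a summit in that window were taken, and peaks overlapping by at least 1 bp were merged. This gave 28 sites, of 166523 merged regions in the whole genome. The number depends on the peak threshold: there were 12 when peaks needed a −log10 q of at least 10, and 10 with every list limited to its strongest 39522 peaks. ATAC-seq uses a transposase that inserts sequencing adapters into open chromatin, so a peak marks a stretch of DNA that was accessible in part of the cells. A larger share of open cells and more cutting per cell cannot be told apart in such bulk libraries.

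In MDA-MB-453, a human breast cancer cell line, 3 engineered sublines carried an ectopic estrogen receptor alpha (ER) under doxycycline control. The receptor was wild type (WT), Y537S, a ligand-binding domain change that keeps the receptor active when hormone is lacking, or K303R, a change in the hinge region. Each subline was left untreated or exposed for 2 days to estradiol (E2, 1 nM), to doxycycline (Dox, 2 ug/mL) or to the combination, in medium with serum, with 1 library per subline and treatment. The file names carry a single clone-like name per subline, so a difference between receptor forms cannot be told apart from a difference between clones. No replicates exist, so the 3 receptor forms served as blocks, and every p-value measures only the spread between these 12 libraries.

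Trefoil factors are small secreted peptides that protect and repair mucous epithelia. TFF1, first described as pS2 in breast cancer cells, is a classic estrogen-induced gene with an estrogen response element in its promoter. TFF2 is best known from gastric mucus, and TFF3 from intestinal goblet cells and estrogen-responsive breast tumours. All are transcribed towards lower coordinates, so that the higher end of each gene is its start.

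Each peak carries the authors' fold enrichment, the summit pileup plus 1 over the library's background plus 1, and the pileup of overlapping fragments could be recovered from it as a whole number. The lists held 39522 to 133963 summits, and the lowest pileup listed was 3 to 5. A site with no listed peak thus had a pileup under that level, which leaves weak accessibility possible. To compare libraries, a pileup was divided by the library's median pileup over regions open in all 12 libraries (8 to 34), here called the relative pileup. The untreated K303R library stood apart, with a median of 24.9 times its background against 47.1 to 102 in the others. The peak names carry 1 of 3 date-like tags, and what a tag records is not given. The Y537S libraries share a tag, and their peak names hold the word trypsin and no receptor form, which was taken from the sample titles. The K303R libraries share another with untreated and E2-treated WT. Both Dox-treated WT libraries carry the remaining tag. In WT, Dox and whatever the tag records cannot be told apart, whereas the Dox comparisons within Y537S and within K303R each lie inside 1 tag. Of 8 genes marking luminal breast cells, 7 had a peak within 1 kb of a gene end in all 12 libraries. Of 11 markers of other cell types, none had a peak in all 12, and 7, among them PECAM1, VIM and KRT5, had none in any. The collagen gene COL1A1 had a peak in 11 libraries, and PTPRC, CD3E and CDH5 in 4, 5 and 2.

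The start of TFF1 was the site at which Dox and chromatin went together most clearly. The site (chr21:42366211-42367161) spans 951 bp over the gene's start at position 42366535. Its fold enrichment in WT was 4.38 untreated, 10.3 with Dox and 17.6 with Dox and E2, with no peak under E2 alone. In Y537S it was 8.24 with E2, 34.6 with Dox and 31.5 with both, with no peak in untreated cells. In K303R the site had no peak without Dox and a fold of 9.92 with Dox and 15.1 with Dox and E2. All 6 Dox libraries had the peak and only 2 of the 6 others did, both of them below every Dox library in fold.

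**Figure D1:**
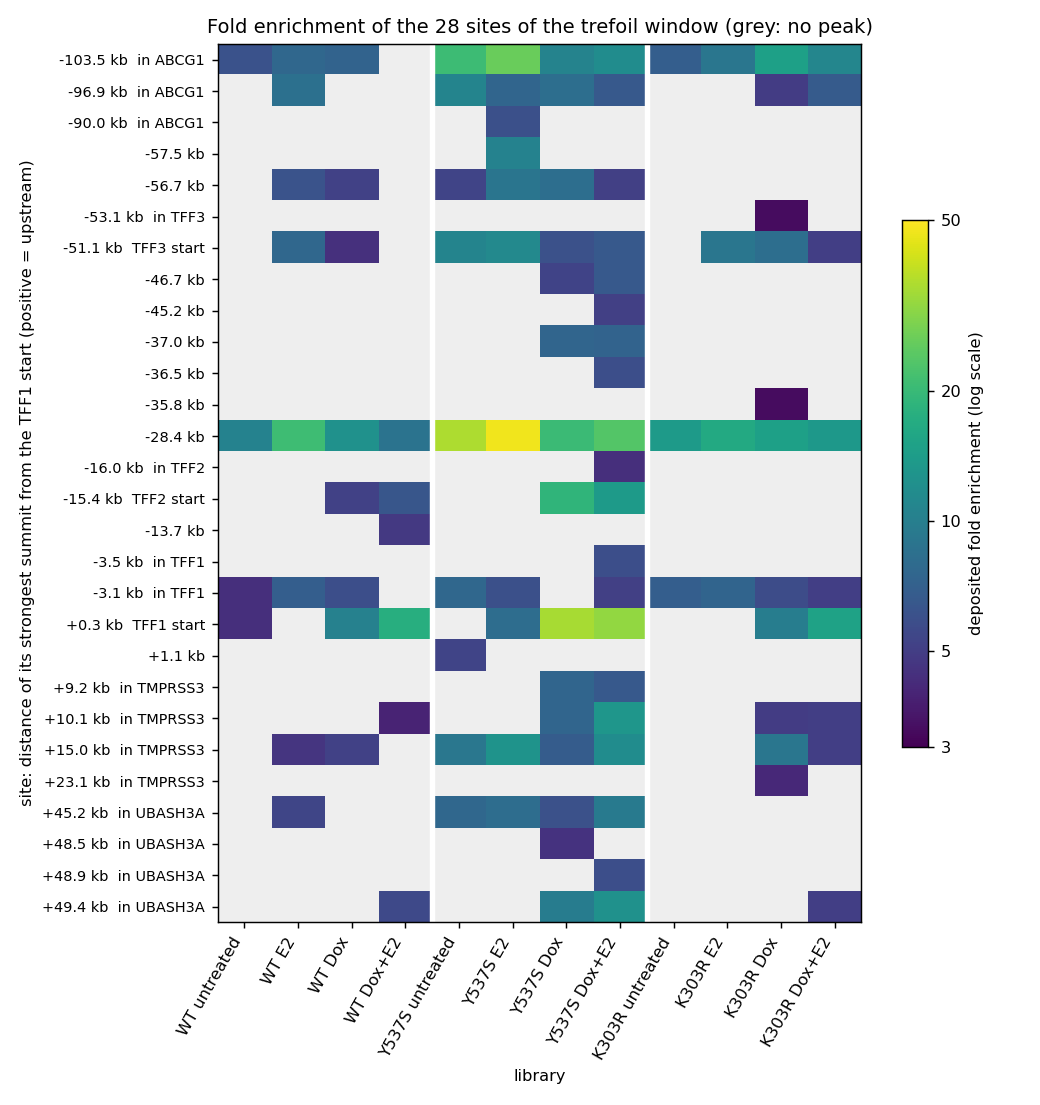
Deposited fold enrichment (colour, log scale) of the 28 sites in each of the 12 libraries, ordered by distance from the TFF1 start, with grey where no peak was listed. The row of the TFF1 start is filled in all 6 Dox libraries, the site between TFF3 and TFF2 is filled in all 12, and the Y537S library with Dox and E2 fills the most rows, 20.

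On the relative scale, the mean log2 pileup at the TFF1 start was 0.25 with Dox and -1.84 without, a difference of 2.08. Libraries without a peak entered at their lowest listed pileup. An exact permutation test of the Dox labels within receptor forms (two-sided) gave p = 0.00926, the smallest that this design can give. In a limma fit over the 113313 regions with a peak in at least 2 libraries, the same difference of 2.08 had an SE of 0.34, a 95% interval of 1.37 to 2.79 and an adjusted p of 0.00109. The interval does not cover the choice of value for a missing peak. The difference was 3.47 with a missing peak at a pileup of 1, and 1.36 with the same lowest value for all libraries. The call was lost only with windows of fixed width around summits in place of merged peaks, where the difference was 1.70 with an adjusted p of 0.0937. There the TFF1 start site was split, and these values belong to a single part of it. In that setting 1 site of the trefoil window was still called higher with Dox. Among the 15 window sites that could be tested, this was the only one with both Dox libraries above both others within every receptor form, a pattern of 1.77% of all regions tested. All 6 Dox libraries lay above all 6 others there, as at 0.907% of regions.

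The height of the TFF1 peak differed between the single libraries of the receptor forms. The pileup under Dox was 45 in Y537S (exact Poisson 95% interval 32.8 to 60.2), 13 in WT (6.92 to 22.2) and 11 in K303R (5.49 to 19.7). With Dox and E2 it was 42 (30.3 to 56.8), 21 (13.0 to 32.1) and 17 (9.90 to 27.2) in the same order. These intervals cover counting error only, and the libraries differ in depth. Relative to each library's always-open regions, the Dox pileups were 1.88 in Y537S, 0.765 in WT and 0.688 in K303R. With both agents they were 1.75, 1.62 and 1.00. Y537S was thus the highest on either scale, but WT with Dox and E2 came close to it on the relative scale. In the ratio to a site open in all 12 libraries, given below, the order was not the same throughout. Y537S lay above WT with Dox (1.73 against 0.813) and below it with both agents (1.35 against 2.10). The Dox difference was 3.22 on the log2 scale in Y537S, 1.78 in WT and 1.25 in K303R, and a limma test of Dox by receptor form called it different (F = 6.00, adjusted p = 0.0105). That test called 7 of the 15 window sites and 32.3% of all regions, and 7 and 40% had an unadjusted p under 0.05. Libraries without a peak entered that test at their lowest listed value, and these values alone give Dox differences of 0.44 in Y537S, -0.06 in WT and -0.94 in K303R. With the same lowest value for all libraries, which also raised weaker listed peaks to it and left 57661 regions, the adjusted p was 0.290, and 1 window site was called (12.7% of all regions). The call at the TFF1 start was also lost with the pileup taken relative to background, where the test called 0 window sites.

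**Figure D2:**
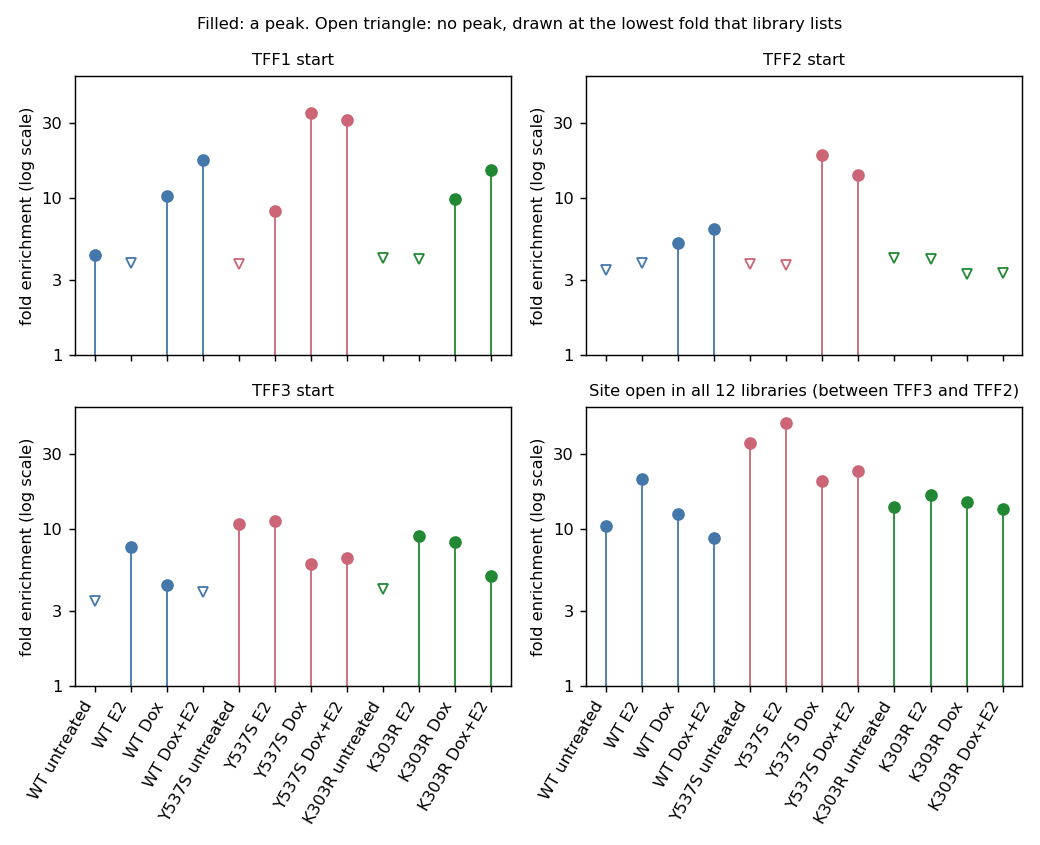
Deposited fold enrichment (log axis) at the starts of TFF1, TFF2 and TFF3 and at the site open in all 12 libraries, by library. Filled circles are peaks and open triangles mark libraries without a peak, drawn at the lowest fold that library lists. At the TFF1 start the 6 Dox libraries range from 9.92 to 34.6 and exceed the other libraries, whereas at the TFF3 start the treatments overlap.

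The listed TFF1 peak differed in shape as well as height between the Dox libraries and the 2 others that had a peak. Those 2 peaks were low, with pileups of 4 in untreated WT and 10 in E2-treated Y537S. Whether the shape differs apart from the height was not tested. Without Dox, the peaks of untreated WT and E2-treated Y537S had 1 summit each, 122 and 151 bp inside the gene, and their intervals of 201 and 252 bp ended 7 to 8 bp before the start. With Dox, the intervals were 581 to 936 bp wide and reached 352 to 626 bp upstream. All 6 Dox libraries had a summit 35 to 316 bp upstream of the start, 8 summits in all. None of the 6 other libraries listed one, but an upstream summit under the lowest listed pileup would not show. A second summit 69 to 147 bp inside the gene was listed in 5 Dox libraries, the exception being Y537S with Dox alone. A summit within 500 bp upstream in all 6 Dox libraries and in no other was found at 30 of 34789 RefSeq promoter starts (0.0862%), and the reverse pattern at 0. TFF1 is not among the starts counted, since the promoter list held no entry for it. Its own start was taken from the gene span. The count by position was chosen after the peaks had been seen. Farther out, untreated Y537S had a separate small peak with its summit 1077 bp upstream (fold 5.37), listed in no other library. Inside the gene, 0.782 kb from its lower end, Y537S with Dox and E2 had a further peak of its own (fold 5.87).

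**Figure D3:**
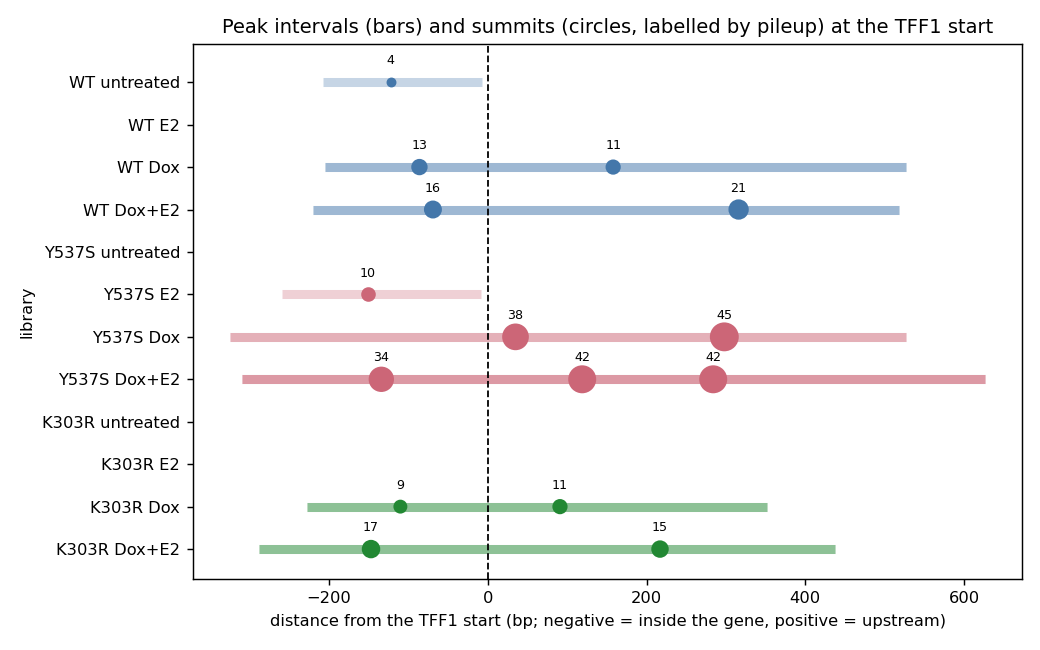
Peak intervals (bars) and summits (circles, labelled with the pileup) around the TFF1 start in each library, as distance in bp from the start, negative inside the gene and positive upstream. Within the range drawn, only the 6 Dox libraries have summits and interval ends upstream of the start; the intervals of untreated WT and E2-treated Y537S end inside the gene.

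A comparison inside each library avoids the scaling between libraries. The site between TFF3 and TFF2 that was open in all 12 libraries (chr21:42337780-42338643) served as the reference. The TFF1 pileup divided by that of the reference was 0.364 in untreated WT, 0.813 with Dox and 2.10 with both agents. In Y537S the ratio was 0.161 with E2, 1.73 with Dox and 1.35 with both. In K303R it was 0.647 with Dox and 1.13 with both. Where the TFF1 start had no peak, the lowest listed pileup limits the ratio to about 0.0889 in untreated Y537S, 0.154 in E2-treated WT, 0.263 in untreated K303R and 0.211 in E2-treated K303R. All 6 Dox ratios lay above every ratio and limit without Dox. The reference itself was lower with Dox, as described with the sites between the genes, so part of each ratio comes from it.

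**Figure D4:**
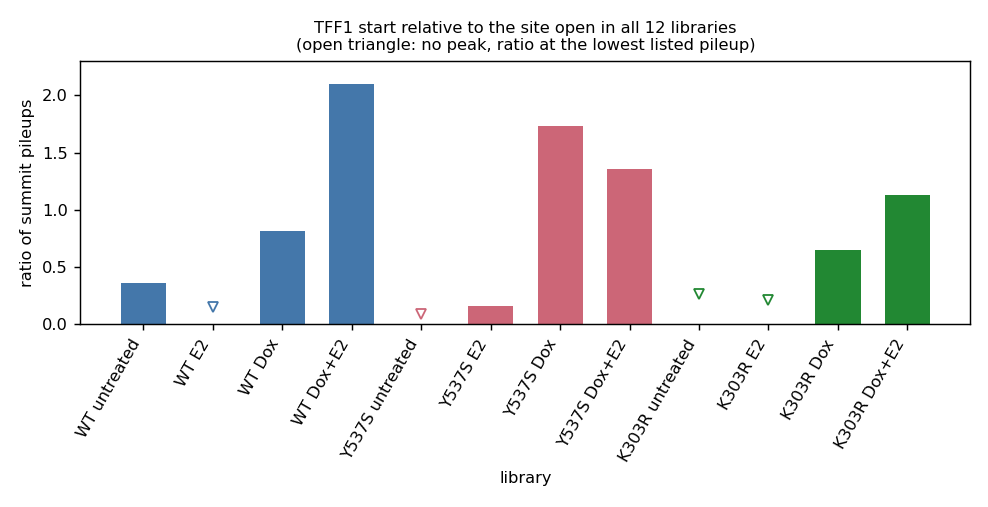
Summit pileup at the TFF1 start divided by that of the site open in all 12 libraries, by library; open triangles mark the ratio at the lowest listed pileup where the TFF1 start had no peak. The Dox libraries range from 0.647 to 2.10 and the other libraries reach at most 0.364.

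Of the 3 libraries with estradiol alone, only Y537S had the TFF1 peak. Over all libraries the log2 difference for E2 was 0.12 (95% interval -0.60 to 0.83), with an exact permutation p of 0.917 and a limma adjusted p of 0.997. On top of Dox, E2 went with a pileup of 21 against 13 in WT, 42 against 45 in Y537S and 17 against 11 in K303R. Within each form these counting intervals overlap. Swapping E2 within 3 Dox pairs cannot give a p below 0.25. The Dox by E2 term at this site was 0.78 with an adjusted p of 0.787 in limma, so a joint effect of the agents was not detectable here. Across the window, 0 of 15 sites were called for E2 (0% of all regions in either direction) and 0 for the Dox by E2 term (0%). None of the 15 reached an unadjusted p under 0.05 in either, against 1.25% and 1.95% of all regions.

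The start of TFF2 was open only in Dox libraries, and only in 2 of the 3 receptor forms. This site (chr21:42350952-42351454) had a fold of 5.14 in WT with Dox, 6.39 in WT with both agents, 18.8 in Y537S with Dox and 13.9 in Y537S with both. None of the 4 K303R libraries and none of the 6 libraries without Dox had a peak there. The Y537S pileups were 24 and 18 and the WT pileups 6 and 7. As relative pileups they were 1.00 and 0.75 in Y537S and 0.353 and 0.538 in WT, so the forms were closer with both agents than with Dox alone. A second site, inside TFF2 and 0.415 kb from its start, was listed only in Y537S with both agents (fold 4.40). Over the 3 forms the Dox difference of 0.84 did not pass the tests (exact permutation p = 0.222, limma adjusted p = 0.399). It was 2.29 when a missing peak was set to a pileup of 1, with a limma adjusted p of 0.0362 and an exact permutation p of 0.0556. By form it was 2.81 in Y537S, 0.63 in WT and -0.94 in K303R, and the last value is that of the lowest listed pileups, since no K303R library had a peak. The Dox by receptor form test called this site in limma (F = 15.2) and still did with a common lowest value (adjusted p = 0.0496), but not with the lower common value that applies once the untreated K303R library is left out (adjusted p = 0.142), where 0 window sites and 7.86% of all regions were called. Leaving out that library alone left 5 window sites called. Without the K303R libraries, the Dox difference was 1.72 with a limma adjusted p of 0.00165 and an exact permutation p of 0.111. That setting leaves out the form that had no peak at the TFF2 start.

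The start of TFF3 was open in 9 libraries, 5 with Dox and 4 without. The site (chr21:42315295-42315930) had a fold of 7.72 in WT with E2 and 4.41 in WT with Dox. In Y537S it was 10.7 untreated, 11.2 with E2, 6.02 with Dox and 6.60 with both. In K303R it was 9.08 with E2, 8.27 with Dox and 5.03 with both. No peak was listed in untreated WT, WT with both agents or untreated K303R. The Dox difference was -0.45. It had an exact permutation p of 0.0370, the only one besides TFF1 under 0.05 among 6 unadjusted tests at the 3 gene starts, but a limma adjusted p of 0.476. It was not kept when a missing peak was set to a pileup of 1 (-0.13, p = 0.870, exact) or under the background scaling (-0.40, p = 0.361, exact). In Y537S, with a peak in all 4 libraries, both Dox folds lay below both others. The E2 differences at TFF2 and TFF3 were -0.27 and 0.03 (exact permutation p = 0.583 and 0.935).

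With every listed peak counted as open, no window site was lost with Dox. A site was called gained in a receptor form when both Dox libraries had a peak and neither of the others did, and lost in the reverse case. Y537S gained 6 of the 28 sites (18.2% of all regions were gained there), K303R gained 4 (8.54%) and WT gained 1 (4.14%). At least 1 form gained 9 sites, or 32.1% of the window against 25.5% of all regions, and no site was gained in all forms (1.3% of all regions). The lost count was 0 in each form, against 2.08% of all regions in WT, 6.71% in Y537S, 0.0799% in K303R and 8.26% in at least 1 form. In K303R, the lists with Dox held 97243 and 102713 summits against 39522 and 61723 without. The part of this in the K303R counts was not tested. The counts depend on the peak threshold. At a −log10 q of 10 or more, 2 sites counted as gained in Y537S (the TFF2 start and the site in UBASH3A 49.4 kb upstream of TFF1), 1 in K303R and 1 in WT. In K303R and WT this was the TFF1 start, while the TFF2 start no longer counted as gained in WT. At the same threshold the TFF3 start counted as lost in Y537S.

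Between the genes, the reference site was the only one of the 28 open in all 12 libraries, as were 9.99% of all regions. Its fold was 10.5, 20.8, 12.5 and 8.78 in WT (untreated, E2, Dox, both), 35.3, 47.2, 20.3 and 23.5 in Y537S, and 13.9, 16.5, 14.9 and 13.4 in K303R. Its relative pileup was 1.27 to 1.82 without Dox and 0.769 to 1.29 with Dox, and within each form both Dox libraries lay below both others. The limma difference was -0.59 (SE 0.16, adjusted p = 0.0423), the only site called lower with Dox in the window, while 2.13% of all regions were. The call was lost without any 1 of 9 libraries and with the pileup taken relative to background (adjusted p = 0.604), but the difference stayed at -0.66 to -0.53 and -0.54. A site within TFF1, 1.17 kb from the gene's lower end (chr21:42363236-42363926), was open in 10 libraries at folds of 4.38 to 7.67. It was absent in WT with both agents and in Y537S with Dox, and its Dox difference of -0.54 did not pass the test (limma adjusted p = 0.402).

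Upstream of TFF1, in the gene for the serine protease TMPRSS3, a pair of neighbouring sites appeared with Dox. The site 10.1 kb upstream (chr21:42376280-42376744) had a fold of 3.99 in WT with both agents, 7.52 and 13.2 in Y537S with Dox and with both, and 4.96 and 5.03 in K303R. It was open in 5 of 6 Dox libraries and in none of the others. The site 9.24 kb upstream was listed only in the Dox libraries of Y537S, at 7.52 with Dox and 6.60 with both. A further site in TMPRSS3 (chr21:42381423-42381708) was gained in K303R (9.09 and 5.03) but was open in all 4 Y537S libraries at 6.77 to 12.7 and in WT with E2 or Dox.

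At the far edge, in UBASH3A, a gene that dampens T-cell receptor signalling, a site 49.4 kb upstream of TFF1 (chr21:42415525-42416180) was open in 4 Dox libraries. Its fold was 5.59 in WT with both agents, 9.78 and 12.5 in Y537S, and 5.03 in K303R with both. None of the libraries without Dox listed it. On the other side, in the sterol exporter gene ABCG1, a site was open in 11 libraries at folds of 6.13 to 26.2. The fold was highest in Y537S without Dox. As relative pileup it was highest in K303R with Dox (1.06), followed by Y537S with E2 (1.00) and untreated Y537S (0.839). Another ABCG1 site was gained in K303R at 4.96 and 6.71, but was open in all Y537S libraries and in WT with E2. Between TFF3 and TFF2, sites 4.38 and 14.1 kb upstream of the TFF3 start were gained in Y537S, at folds of 5.27 and 6.60 and of 7.52 and 7.33, and were listed in no other form.

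**Figure D5:**
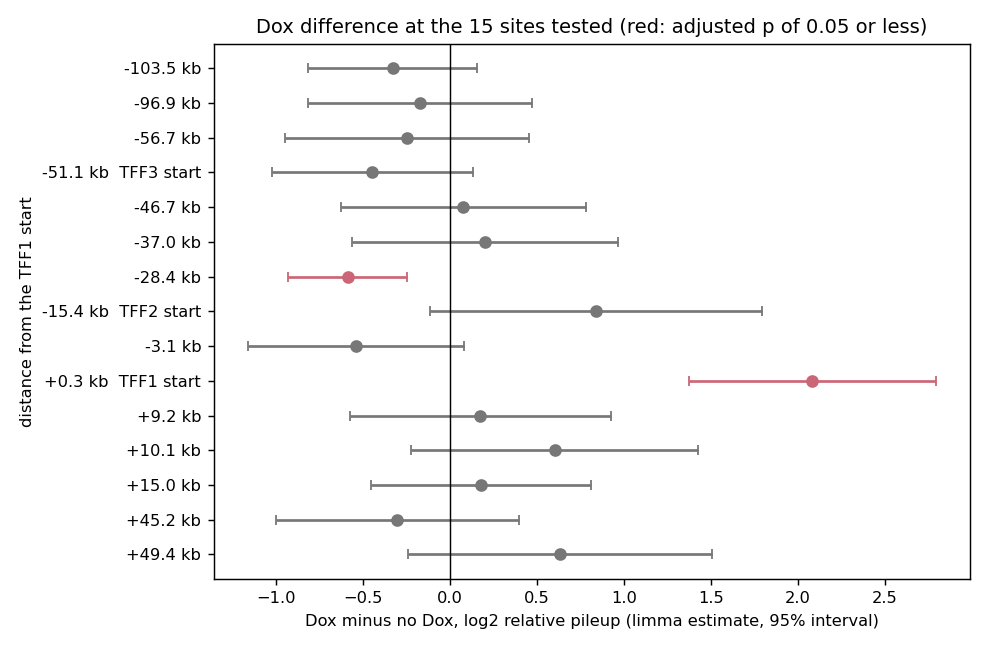
Dox difference in log2 relative pileup (limma estimate and 95% interval) at the 15 sites with a peak in at least 2 libraries, ordered by distance from the TFF1 start. The TFF1 start (2.08) and the reference site (-0.59) are the only sites with an adjusted p of 0.05 or less, drawn in red.

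Over the window, the Dox differences lay on both sides of 0. Of the 15 sites tested, 8 had a positive value, with a median of 0.08 against 0.00 over all regions, and 1 was called higher (2.51% of all regions). Without the correction for multiple testing, 2 sites had a p under 0.05, against 16.2% of all regions. The median E2 difference was -0.17 in the window and -0.16 over all regions. Peaks were listed only in Dox libraries at 16 of the 28 sites (57.1%, against 42.4% of all regions) and only in libraries without Dox at 3 (10.7%, against 14%). Of these sites, 6 of the 16 and 0 of the 3 had a peak in at least 2 libraries. In all, 13 sites were listed in a single library (32% of all regions). Relative to the number of open regions, the window held 2.16 sites per 10000 in Y537S with Dox and E2 and 0.957 to 1.63 in the other libraries. Y537S libraries have the longest lists. In K303R, 68105 and 72949 regions were open with Dox against 28300 and 41791 without. The part of list length in these counts was not tested.

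Within the window, the sites whose relative pileup followed that of the TFF1 start most closely were the distal UBASH3A site (Pearson r = 0.75 over 12 libraries), the TFF2 start (0.75) and the TMPRSS3 site 10.1 kb upstream (0.70). The TFF3 start (-0.65) and the reference site (-0.63) ran the other way. Outside chromosome 21, 49549 regions with a peak in at least 6 libraries were compared with the TFF1 start. Among the 5 closest were a region in FGD6 (r = 0.979), one 74.2 kb from IRF2BP2 (0.979), one in MACROD2 (0.978), with FLRT3 the nearest gene end, and one in CCDC85C near CCNK (0.976). The median over all compared regions was 0.07 and the 95th percentile 0.84. All these values share the same 12 libraries with their depths and lowest listed pileups, and they are descriptions only. The FGD6 region, the closest, had folds of 7.35 and 12.8 in WT with Dox or both agents, of 23.3 and 25.7 in Y537S, and of 9.92 and 9.23 in K303R, against at most 5.99 without Dox.

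A list of 18 other genes that respond to estrogen or act with trefoil peptides in mucus was set beside all protein-coding genes. The list was chosen with earlier results of these data known, so its counts are descriptions only. A region gained with Dox in all forms lay within 50 kb of 5 of the 18, namely GREB1, PGR, CA12, IGFBP4 and SERPINA1, against 13.4% of all genes. The other genes of the list, among them XBP1, STC2, PDZK1, AGR2 and AGR3, had no such region. In WT, 9 of the 18 had a gained region (34% of all genes), in Y537S 16 (68.3%) and in K303R 16 (58.2%). Regions lost were near 6 (20.8%), 8 (46.1%) and 0 (1.54%) in the same order. By limma, 6 had a region called higher with Dox within 50 kb (20% of all genes) and 8 a region called lower (13.6%). The list had a median of 17 regions per gene and all genes had 12, and the part of this in the counts was not tested. CA12, a carbonic anhydrase, had 7 gained regions in WT, 17 in Y537S and 6 in K303R. SERPINA1, the gene of alpha-1-antitrypsin, had 8, 6 and 4, and GREB1, a cofactor of the receptor, had 4, 10 and 2. The secreted mucins MUC5AC, MUC5B and MUC6 had at most 2 in any form, and the trefoil partner FCGBP had 0, 3 and 1. TFF1 itself, on the same count, had 1, 6 and 3. The genes also differed in how many regions lay within 50 kb, gained or not. There were 47 at CA12, 29 at GREB1, 25 at SERPINA1 and 23 at TFF1. MUC5AC had 7, MUC5B 12, MUC6 8 and FCGBP 13. The gained counts are not shares of these totals, and the part of the totals in them was not tested.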

How the data were processed

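The study measured chromatin accessibility by ATAC-seq (75 bp paired ends). Per the submitters' processing notes, the authors used FastQC, Bowtie2, SAMtools, Picard and MACS2 with the build hg38; their settings, and whether reads were shifted for the transposase cut, were not given in the sources used here. Per the peak names, the authors called peaks for each library separately. The authors' deposited fold enrichment is a ratio to background, the deposited −log10 p and −log10 q belong to each summit, and the deposited score is a rescaled −log10 q. Other deposited columns hold positions and summit offsets. Pileups were recovered from the ratio to within 0.000721 of a whole number.

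Differences are in log2 relative pileup, fitted with limma 3.58.1 in R 4.3.3 with receptor form as a block and Benjamini-Hochberg adjustment over all regions tested (threshold 0.05). Single sites were tested by exact permutation with numpy 2.4.6, and the steps were tested on simulated data. Gene spans came from a RefSeq table (GRCh38.p14 family) without strand. The 5 regions most like the TFF1 start were chosen by Pearson correlation; 1 of them and 2 marker genes are not reported by name here. Members, lists and tests were chosen with earlier results of these data known. Described one by one are sites within 1 kb of an end of TFF1, TFF2 or TFF3, gained or lost with Dox, called in a fit, or open in at least 10 libraries. Alternatives were the value of a missing peak (pileup of 1, or a common lowest value), scaling, filters of 1 or 4 libraries, stricter −log10 q (5, 10), equal list length, fixed-width windows, flanks of 20 and 100 kb, and leaving out libraries or forms.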

Additional observations from a re-analysis of the deposited data

Results flagged for a closer look

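At 7 of the 15 sites tested in the window, the Dox difference varied between the 3 receptor forms in limma's test of Dox by form, while 32.3% of all regions did. The F values were 15.2 at the TFF2 start, 9.04 at the UBASH3A site 49.4 kb upstream of TFF1, 8.62 and 6.72 at the sites 14.1 and 4.38 kb upstream of the TFF3 start, 8.17 and 7.05 at the TMPRSS3 sites 9.24 and 10.1 kb upstream of TFF1, and 6.00 at the TFF1 start. At each of them Y537S with Dox had a peak. The sites 14.1 and 4.38 kb upstream of the TFF3 start and 9.24 kb upstream of TFF1 had peaks only in the Y537S libraries with Dox. They entered the test through those libraries alone. Their Dox differences in WT and K303R (-0.06 and -0.94) are those of the lowest listed pileups. Their F values therefore add nothing to the presence of these peaks. The libraries' lowest listed values differ between the forms, and these calls were fewer when that was changed: with a common lowest value 1 site was called (the TFF2 start, with 12.7% of all regions), and 0 were when the untreated K303R library was left out as well, which lowers that common value (7.86%). Leaving out that library alone left 5 called.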

How the results depend on the processing

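No paired analysis was possible because of a lack of replicate numbers in the labels, with 1 library per group; receptor form was the block instead. At the TFF1 start the limma Dox difference ranged from 1.36 to 3.47 over 23 alternatives and kept its call in 22. The count of sites called higher (1) became 3 with a missing peak at a pileup of 1 and 2 without the K303R libraries. The count called lower (1) became 0 under background scaling, with single-library regions included, with fixed-width windows, without any 1 receptor form, and with a common lowest value without untreated K303R; leaving out single libraries gave 0 to 1. It was lost without any 1 WT library, without untreated, E2-treated or Dox-treated Y537S, and without untreated or Dox and E2-treated K303R. The Dox by form count (7) became 4 (missing peak at 1), 0 (background scaling), 11 (single-library regions included), 4 (peaks in at least 4 libraries), 4 (−log10 q of 5 or more), 1 (common lowest value) and 0 (a common lowest value without untreated K303R); without untreated K303R alone it was 5. Background scaling moved the median E2 difference of all regions from -0.16 to 0.16, a shift of 0.32, and gave 3144 regions higher and 392 lower with Dox against 2848 and 2409.

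In the exact tests, the TFF1 Dox difference was 2.23 without WT, 1.51 without Y537S and 2.50 without K303R, each at p = 0.0556, the smallest that 36 arrangements can give. The TFF1 E2 difference turned to -0.10 without Y537S, in the exact test and in limma. TFF2 turned to -0.15 for Dox without Y537S, likewise in both, and to 0.045 for E2 under background scaling. TFF3 E2 turned to -0.054 without WT. TFF3 Dox was -0.13 (missing peak at 1), -0.40 (background scaling), -0.43 without WT, -0.46 without Y537S and -0.45 without K303R, with p of 0.870, 0.361, 0.167, 0.167 and 0.0556 (exact).

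Gained sites in K303R (4) became 1 at a −log10 q of 5 or more, 1 at 10 or more and 1 at equal list length, and stayed 4 without the untreated library. Gained sites in Y537S (6) became 2 at equal list length and 2 at a −log10 q of at least 10, and the WT count (1) became 0 at equal list length. Lost sites (0) became 1 in Y537S at a −log10 q of 5 or more, 1 at 10 or more, 1 at equal list length, 4 with fixed-width windows and 1 with 100 kb flanks, and 1 in K303R at equal list length. At 10 or more the lost site was the TFF3 start. The causes of these changes were not tested. A pileup under 3 to 5 was not listed, so smaller differences at low sites were not detectable.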

Other observations

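Of the 28 sites, 13 were listed in a single library (46.4%, against 32% of all regions). Of these, 9 were in Y537S, 5 of them with Dox and E2, while 3 were in K303R with Dox and 1 in WT with Dox and E2. Their pileups ranged from 3 to 13 with a median of 6. The strongest, at a fold of 10.5 in Y537S with E2, lay 2.59 kb beyond the lower end of TFF3. A site 1.84 kb beyond the same end was open in all 4 Y537S libraries and in WT with E2 or Dox, but in no K303R library. A UBASH3A site 45.2 kb upstream of TFF1 was likewise open in all 4 Y537S libraries (folds of 6.02 to 9.53) and in WT with E2 (5.40) only. In all, 12 sites were listed only in Y537S libraries, and the share of this that comes with their longer lists was not tested.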
